A study of Mus musculus with 6 samples.

Results

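Core pluripotency transcription factors are the DNA-binding proteins that keep embryonic stem cells (ESCs) undifferentiated. The genes described here are Pou5f1 (which encodes Oct4), Nanog, Sox2, Esrrb, Tfcp2l1, Zfp42 (Rex1), Prdm14, Tbx3, Nr0b1 (Dax1) and Sall4. They were taken by exact gene symbol, and all 10 of 10 were measured, on 19 probe sets, among 18193 named genes. A probe set is a group of short array probes that reads 1 transcript. Each gene was read on its brightest probe set, by the mean of all 6 arrays. The other 9 probe sets, which belong to Esrrb, Tfcp2l1, Tbx3 and Sall4, are given beside it.

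The samples are R1 mouse ESCs of strain (129X1 x 129S1)F1 with the genotype Sirt1+/+ (wild type, 3 samples) or Sirt1-/- (knockout, 3 samples). Sirt1 is an NAD-dependent protein deacetylase. Cells of both genotypes were grown on gelatin-coated dishes in medium with serum and LIF (leukaemia inhibitory factor, which supports self-renewal), and total RNA went to 1 Affymetrix array per sample. The labels give 1 source for each genotype, and the sources used here do not say how the knockout line was made or how many clones it holds. Whatever else sets these 2 cell sources apart cannot be told apart from the loss of Sirt1. Nothing says that the 3 samples of a genotype were separate cultures, so p-values measure only how these samples spread, and that spread may be technical.

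Values are log2 levels, so a difference of 1 is a 2-fold difference in signal. The number of arrays limits the precision of every value. Array medians over all probe sets lay between 4.51 and 4.57. Pearson's r over genes, which are not independent replicates, was 0.9972 to 0.9980 within a genotype and 0.9893 to 0.9908 between genotypes. Sirt1 itself read 10.12, 10.13 and 10.23 on the wild-type arrays, against 8.02, 7.94 and 8.20 on the knockout arrays, with no overlap. Its log2 change was -2.11 (limma, Benjamini-Hochberg adjusted p = 3.98e-05). The sources used here do not place its probes relative to the deletion.

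Oct4 and Sox2 bind DNA as a pair, next to each other on a composite element, and switch on a shared set of genes that includes their own. Nanog, Esrrb, Tfcp2l1 and Tbx3 hold the naive state of the early epiblast and respond to LIF and Wnt signals. Prdm14 represses fibroblast growth factor (FGF) signalling and DNA methylation, Nr0b1 is a corepressor that binds Oct4 and Esrrb, Sall4 is a zinc finger partner of Oct4, and Zfp42 is a zinc finger protein widely used as a mark of the naive state.

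The promoters of 4 of these genes are shown because they hold matches to elements through which Oct4, Sox2 and general promoter factors are known to act. They were chosen with the results known. Of the other genes searched, Tfcp2l1 and Nr0b1, which fell, and Esrrb, which did not pass, held none of the motifs. Each line gives the 250 bases before the annotated start, 5' to 3' on the strand of the gene, from RefSeq on GRCm38.p6. Of the 10 genes, 7 were matched in that promoter table. Capitals mark matches, on either strand, to the POU element ATGCAAA or the octamer ATGCAAAT that extends it, the Sox element CATTGT, or the GC box GGGCGG.
Nanog, chr6:122707239-122707488, plus strand: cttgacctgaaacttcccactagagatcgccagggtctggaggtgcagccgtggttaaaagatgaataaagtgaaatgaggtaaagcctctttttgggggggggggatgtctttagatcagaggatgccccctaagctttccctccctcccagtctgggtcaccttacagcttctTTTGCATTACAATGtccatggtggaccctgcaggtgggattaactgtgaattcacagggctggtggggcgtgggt
Sox2, chr3:34649745-34649994, plus strand: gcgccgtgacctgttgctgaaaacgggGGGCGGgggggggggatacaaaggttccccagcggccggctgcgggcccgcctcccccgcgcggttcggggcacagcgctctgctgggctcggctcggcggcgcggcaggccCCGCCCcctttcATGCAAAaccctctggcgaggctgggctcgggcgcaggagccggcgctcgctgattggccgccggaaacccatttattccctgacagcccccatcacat
Zfp42, chr8:43307010-43307259, minus strand: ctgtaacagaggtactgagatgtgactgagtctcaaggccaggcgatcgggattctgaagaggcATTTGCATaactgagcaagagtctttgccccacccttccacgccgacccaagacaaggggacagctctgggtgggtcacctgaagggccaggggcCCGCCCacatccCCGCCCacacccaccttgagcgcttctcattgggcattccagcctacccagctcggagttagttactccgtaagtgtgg
Pou5f1, chr17:35505782-35506031, plus strand: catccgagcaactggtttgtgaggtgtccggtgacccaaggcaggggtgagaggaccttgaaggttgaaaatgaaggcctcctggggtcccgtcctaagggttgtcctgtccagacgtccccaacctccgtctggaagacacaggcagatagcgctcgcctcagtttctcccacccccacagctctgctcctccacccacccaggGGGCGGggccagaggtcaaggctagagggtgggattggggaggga

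Nanog's capitals hold a Sox element and a POU element, on the minus strand, 1 base apart and 62 to 75 bases before the start. This composite, the Sox element followed by any base and the POU element, was matched in the upstream windows of 1 of 27025 genes (0.00370%), and that gene is Nanog. It is 2 of 32851 windows, since Nanog has 2 annotated starts that share the element. The POU element alone was matched in 4.65% of genes, the octamer in 1.81%, the Sox element in 12.2% and the GC box in 35.4%. Among the 7 matched genes, Sox2 has a POU element 93 to 99 bases before its start and Zfp42 an octamer 179 to 186 bases before it. The Pou5f1 window shown holds a GC box 40 to 45 bases before the start. A window of another annotated Pou5f1 start, not shown, holds a Sox element. AAGGTCA, the core site of estrogen-related receptors such as Esrrb, was matched in 0 of the 7 genes and in 4.70% of all genes. These matches describe letters in a short window, and binding was not measured.

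Most of the core factors were lower in the knockout, and Pou5f1 and Esrrb were not. Of the 10 genes, 8 fell and 0 rose (limma, adjusted over all genes by Benjamini-Hochberg, threshold 0.05), with 0 more at an unadjusted p under 0.05, and all 8 also passed at 0.01. Over all 18193 genes, 17.5% fell and 12.5% rose at this threshold, 30.0% in all. All 10 factors lay above the median level of genes, and of the 9096 genes above it 26.5% fell and 21.5% rose. The median log2 change of the 10 genes was -0.30, against -0.01 over all genes. The arrays of the genotypes did not overlap for 9 of the 10, against 43.8% of all genes. In RNA from a whole culture, fewer cells that express a gene and less RNA per cell cannot be told apart.

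**Figure D1:**
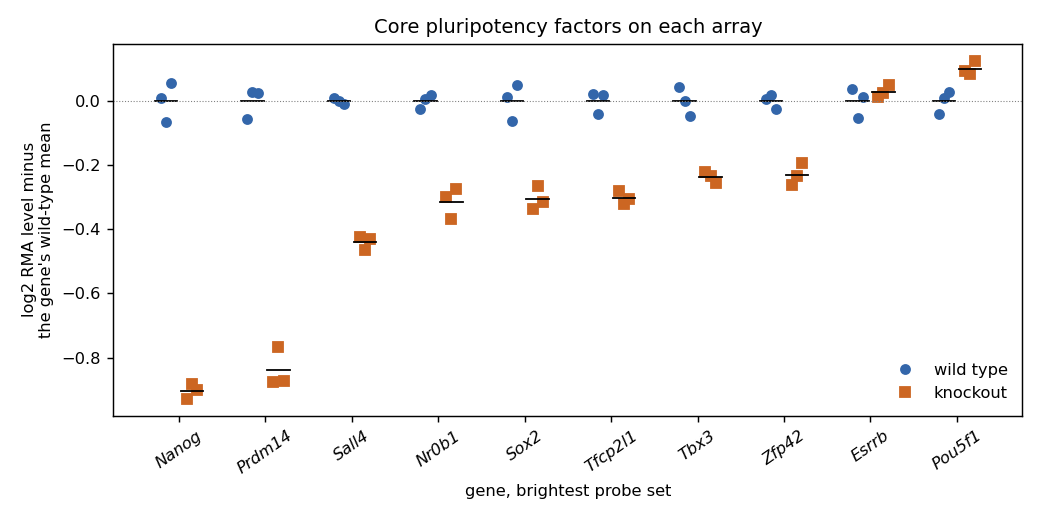
Log2 RMA level of each core factor on each of the 6 arrays, minus that gene's wild-type mean, on its brightest probe set. Circles are the 3 wild-type arrays, squares the 3 knockout arrays and black bars group means. The knockout arrays lie lowest for Nanog (mean -0.90) and Prdm14 (-0.84), and above the wild-type arrays for Pou5f1 (0.10).

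Of the partners of the composite element, Sox2 was lower and the gene of Oct4 did not pass. Pou5f1 read 12.25, 12.30 and 12.32 on the wild-type arrays, against 12.38, 12.37 and 12.41 on the knockout arrays. Every knockout array was above every wild-type array, by a small margin. The log2 change was 0.10 (95% confidence interval -0.01 to 0.21) and did not pass (limma, Benjamini-Hochberg adjusted p = 0.154). With an intensity trend and robust variance in limma it did pass, with an adjusted p of 0.00253. Sox2, which bends DNA beside Oct4, read 12.52, 12.44 and 12.55 on the wild-type arrays, against 12.17, 12.24 and 12.19 on the knockout arrays. All knockout arrays were lower, and the log2 change was -0.31 (SE 0.05; limma, Benjamini-Hochberg adjusted p = 0.00526).

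Nanog, the homeodomain factor that lets ESCs self-renew with little LIF when it is abundant, showed the largest fall of the 10. It read 11.92, 11.84 and 11.96 on the wild-type arrays, against 10.98, 11.02 and 11.01 on the knockout arrays. The SDs were 0.06 and 0.02 (n = 3 each), so the groups lay far apart relative to their spread. The log2 change of -0.90 (95% confidence interval -1.03 to -0.78) is a 1.87-fold lower signal (limma, Benjamini-Hochberg adjusted p = 1.00e-04). Only 2.52% of all genes changed by more in either direction.

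Prdm14 fell by nearly as much as Nanog. It read 8.14, 8.23 and 8.23 on the wild-type arrays, against 7.32, 7.43 and 7.33 on the knockout arrays, again with no overlap. The log2 change was -0.84 (95% confidence interval -0.97 to -0.71), a 1.79-fold lower signal (limma, Benjamini-Hochberg adjusted p = 0.000152). Of all genes, 3.19% changed by more.

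Sall4 followed, and its wild-type arrays were the tightest. Its brightest probe set read 11.29, 11.28 and 11.27 on the wild-type arrays, against 10.86, 10.82 and 10.85 on the knockout arrays. The wild-type SD of 0.0088 was the lowest of the 10 genes. The log2 change was -0.44 (SE 0.04; limma, Benjamini-Hochberg adjusted p = 0.000611). Its other probe set, at a mean of 7.06, read 7.38, 6.95 and 7.02 on the wild-type arrays, against 6.96, 6.96 and 7.07 on the knockout arrays. There the groups overlapped, and the log2 change was -0.12 (95% confidence interval -0.40 to 0.16).

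Of the naive factors fed by LIF and Wnt, Tfcp2l1 and Tbx3 were slightly lower and Esrrb was not. Tfcp2l1, a grainyhead-like factor, read 11.07, 11.01 and 11.07 on the wild-type arrays, against 10.77, 10.73 and 10.75 on the knockout arrays, without overlap. Its log2 change was -0.30 (SE 0.05; limma, Benjamini-Hochberg adjusted p = 0.00327). The other Tfcp2l1 probe sets, at means of 2.67 and 2.41, were dimmer than the lower quartile of all 6 arrays (3.16 to 3.24), and their log2 changes were 0.06 and 0.11 with overlapping arrays. Averaging all 3 probe sets ended the call, at -0.043 (limma, Benjamini-Hochberg adjusted p = 0.621).

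Tbx3, a T-box factor, read 10.17, 10.13 and 10.09 on the wild-type arrays, against 9.91, 9.90 and 9.87 on the knockout arrays on its brightest probe set. The groups did not overlap, and the log2 change was -0.24 (SE 0.05; limma, Benjamini-Hochberg adjusted p = 0.00974). The name of this probe set carries the letter x, by which Affymetrix marks probes that may also match other sequences. A further bright probe set, at a mean of 9.64, read 9.64, 9.74 and 9.68 against 9.62, 9.59 and 9.54. It was also lower on every knockout array, but its log2 change of -0.11 did not pass over all probe sets (limma, Benjamini-Hochberg adjusted p = 0.296). The remaining 3, at means of 5.48, 4.62 and 2.92, overlapped, with changes of -0.23, 0.12 and -0.02. With all 5 averaged the change was -0.095 and did not pass (limma, Benjamini-Hochberg adjusted p = 0.189).

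Esrrb, an orphan nuclear receptor that can stand in for Nanog in self-renewal, gave different results on its 3 probe sets, all above the median level of genes (5.83). The brightest, at a mean of 9.69, read 9.71, 9.62 and 9.69 on the wild-type arrays, against 9.68, 9.70 and 9.72 on the knockout arrays. These overlapped, with a log2 change of 0.03 (95% confidence interval -0.08 to 0.14; limma, Benjamini-Hochberg adjusted p = 0.716). The second, at a mean of 8.50, read 8.38, 8.54 and 8.29 against 8.55, 8.71 and 8.51, a change of 0.19 that did not pass. The dimmest, at a mean of 7.39, read 7.07, 6.97 and 7.27 against 7.65, 7.61 and 7.77. Here every knockout array was higher, and the log2 change was 0.57 (95% confidence interval 0.36 to 0.79; limma over all probe sets, Benjamini-Hochberg adjusted p = 0.00545). Of all 45037 probe sets that are not controls, 19.8% passed in that fit. The array annotation ties the probe set that rose to a RefSeq transcript of Esrrb. The other 2 are tied to records that are not RefSeq transcripts. So are the brightest probe sets of Nanog, Sox2, Prdm14, Tbx3 and Sall4. The second Esrrb probe set also carries the letter x described for Tbx3. With all 3 averaged Esrrb rose by 0.26 (limma, Benjamini-Hochberg adjusted p = 0.00528), so its direction depends on the probe set, and which part of the transcript each one reads was not tested.

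**Figure D2:**
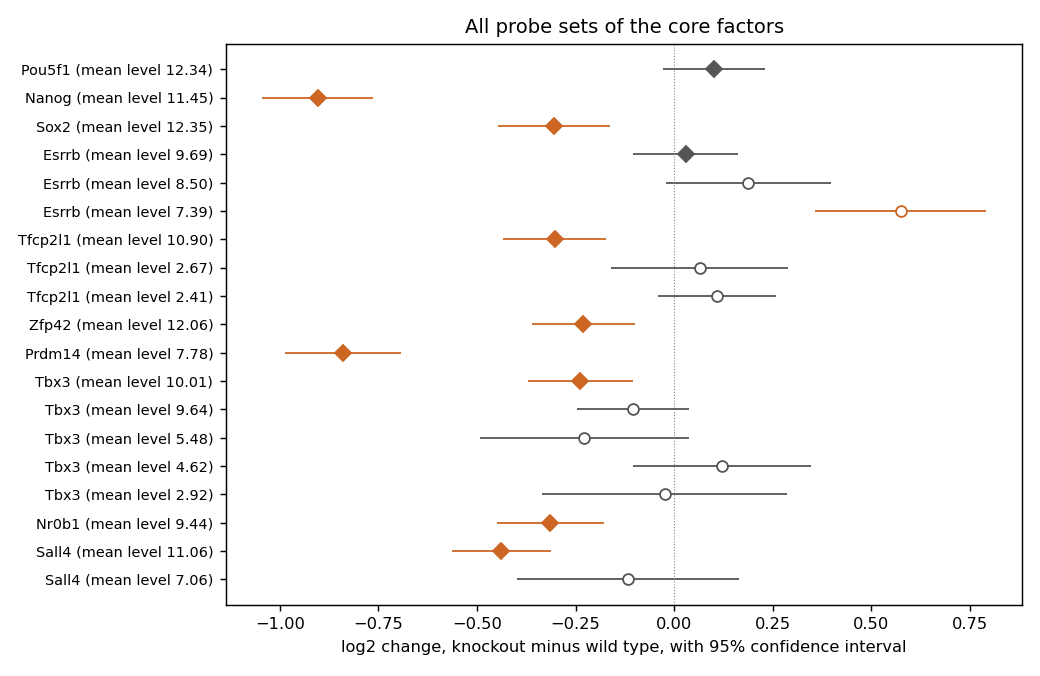
Log2 change (knockout minus wild type) with its 95% confidence interval for all 19 probe sets of the 10 genes, from limma over all probe sets, with each probe set's mean level over the 6 arrays in its label. Diamonds are the brightest probe set of a gene, open circles the others, and orange marks an adjusted p under 0.05. All 8 orange diamonds lie below 0, and the only other orange mark is an Esrrb probe set at 0.57.

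Nr0b1, the corepressor, fell modestly. It read 9.57, 9.60 and 9.62 on the wild-type arrays, against 9.30, 9.23 and 9.32 on the knockout arrays, without overlap, a change of -0.31 (log2, SE 0.05; limma, Benjamini-Hochberg adjusted p = 0.00351). Nr0b1 lies on the X chromosome, where 17.8% of 617 genes fell and 12.3% rose, and the median change was -0.03.

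Zfp42 read 12.18, 12.19 and 12.15 on the wild-type arrays, against 11.91, 11.94 and 11.98 on the knockout arrays. The groups did not overlap, and the log2 change was -0.23 with an SE of 0.05 (limma, Benjamini-Hochberg adjusted p = 0.00977). It was the smallest change of the 8 that passed. Zfp42 lies on chromosome 8, where higher genes were common. Of 932 genes there, 33.6% rose and 10.5% fell, and the median change was 0.08. Zfp42 thus fell on a chromosome whose median was above 0.

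Ordered by log2 change, the genes ran Nanog, Prdm14, Sall4, Nr0b1, Sox2, Tfcp2l1, Tbx3, Zfp42, Esrrb and Pou5f1. Neighbours were set against each other by their difference within each array. This order came from the same arrays, so the sign of each difference was fixed in advance and neighbours were close by choice. Nanog and Prdm14 were not separated by their arrays (difference of changes 0.07; exact two-sided permutation test, p = 0.3). Nor were Nr0b1 and Sox2 (0.01; exact p = 1), Sox2 and Tfcp2l1 (0.00; exact p = 0.9), Tbx3 and Zfp42 (0.01; exact p = 1), or Esrrb and Pou5f1 (0.07; exact p = 0.2). The differences of Prdm14 and Sall4 (0.40), Sall4 and Nr0b1 (0.13), Tfcp2l1 and Tbx3 (0.07) and Zfp42 and Esrrb (0.26) did not overlap between genotypes. Their exact p was 0.1, the smallest that 3 against 3 arrays allow, and 0.225 after adjustment over the 9 pairs.

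Each gene was also set against Pou5f1 on the same array, a difference that a constant shift of an array leaves as it is. Each of the 8 lower genes was lower on all knockout arrays. That had to follow from the values above, where these genes lay below wild type on every knockout array and Pou5f1 lay above it. The shifts also hold the change of Pou5f1 itself (0.10), so they are not a separate result. Nanog minus Pou5f1 was -0.33, -0.45 and -0.35 on the wild-type arrays, against -1.40, -1.35 and -1.41 on the knockout arrays, a shift of -1.01. Sox2 minus Pou5f1 was 0.27, 0.15 and 0.24 on the wild-type arrays, against -0.21, -0.13 and -0.22 on the knockout arrays, a shift of -0.41. The other 6 lower genes shifted by -0.33 (Zfp42) to -0.94 (Prdm14), and their groups did not overlap. Each of these 8 had an exact two-sided permutation p of 0.1 (0.1125 adjusted over 9 pairs). Esrrb minus Pou5f1 shifted by -0.07, with overlapping arrays (exact p = 0.2), and by 0.16 with probe sets averaged.

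**Figure D3:**
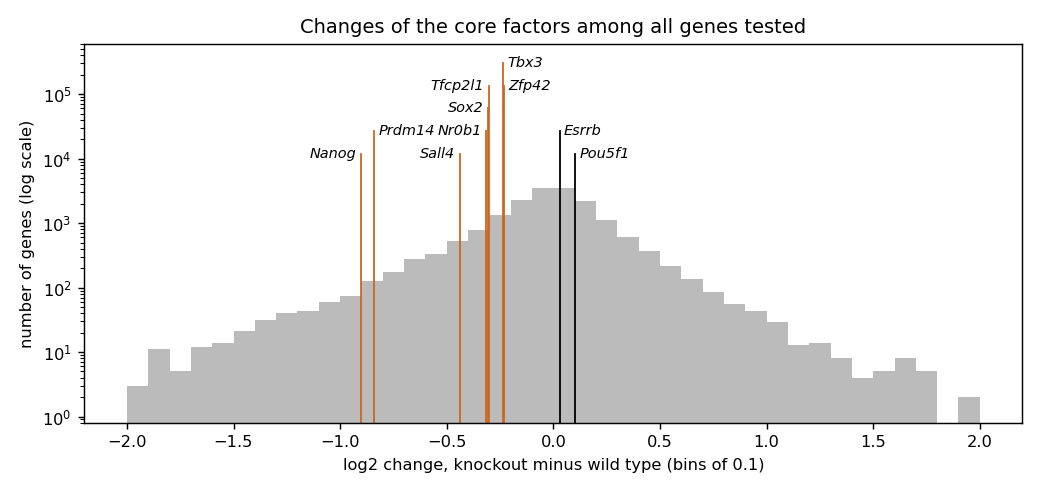
Number of genes (log axis) by log2 change between knockout and wild type, in bins of 0.1, with a vertical line at each core factor. Changes outside -2 to 2 are not drawn, orange lines mark an adjusted p under 0.05 and black lines the others. Nanog and Prdm14 lie in the lower tail, at -0.90 and -0.84, and Esrrb and Pou5f1 in the central bins.

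The genes whose 6 values ran nearest to Nanog's, after removal of each gene's wild-type mean, were Klf5, Krt7, Rai1, Errfi1 and Smc1b. Likeness was the root mean square distance over the 6 arrays, among 9095 genes above the median level. The distances ran from 0.0334 log2 units for Klf5 to 0.0374 for Smc1b. Klf5, a Krüppel-like factor of the naive network, read 11.09, 11.03 and 11.12 on the wild-type arrays, against 10.15, 10.25 and 10.24 on the knockout arrays. The 5 log2 changes lay between -0.87 and -0.92, beside -0.90 for Nanog. Changes close to Nanog's follow from choosing genes by this distance and are not a separate result.

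Known targets of Oct4 and Sox2 were lower or did not pass. Of 13 listed genes 11 were matched, of which 5 fell, 0 rose and 6 did not pass in limma (1 was higher at an unadjusted p under 0.05, and 1 rose with the dimmest genes left out and 2 with the intensity trend). Lefty1, an inhibitor of Nodal, read 9.34, 9.35 and 9.43 on the wild-type arrays, against 7.62, 7.50 and 7.56 on the knockout arrays, a log2 change of -1.82. Tdgf1, the Nodal co-receptor, fell by 0.65, Jarid2, a Polycomb partner, by 0.45 and the growth factor Fgf4 by 0.29. Another Fgf4 probe set gave a log2 change of 0.50. The lower share of the list was 45.5%, all of it from genes above the median level, where 26.5% fell. The list's median was -0.12. Of these named genes, Fgf4 had the highest adjusted p (0.0108, limma with Benjamini-Hochberg).

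Other pluripotency factors moved both ways. Of 27 measured, 11 fell (40.7%), 8 rose (29.6%) and 8 did not pass, with a median of -0.09. Of the 27, 25 lay above the median level of genes, where 26.5% of all genes fell and 21.5% rose. The Krüppel-like factors Klf5, Klf2 and Klf4 fell by 0.87, 0.78 and 0.66, though 1 of the other Klf5 probe sets gave a log2 change of -0.07. Dppa3 (Stella), which protects methylated DNA in the early embryo, read 5.21, 5.27 and 5.16 on the wild-type arrays, against 6.86, 6.92 and 6.96 on the knockout arrays, a rise of 1.70. Etv4, an ETS factor induced by FGF signals, rose by 1.13 and the RNA-binding protein gene Lin28a by 0.63. Etv5, another ETS factor, fell by 0.45, with another probe set at -0.03. Of these named genes, Lin28a had the highest adjusted p (0.00134, limma with Benjamini-Hochberg).

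Of the genes of signals that feed the factors, 20 of 22 listed were matched. In limma 10 rose (50%), 2 fell (10%) and 8 did not pass, with a median of 0.16. Of the 20, 19 lay above the median level of genes, where 21.5% rose and 26.5% fell. Dusp6, a phosphatase induced by FGF and ERK signals, read 9.52, 9.50 and 9.48 on the wild-type arrays, against 10.47, 10.54 and 10.46 on the knockout arrays, a rise of 0.99. Stat3, which carries the LIF signal to the nucleus, rose by 0.76. The receptor gene Fgfr1, on chromosome 8 where 33.6% of genes rose, was higher by 0.42, with another probe set at 0.00. Id2, an inhibitor of basic helix-loop-helix factors, fell by 1.44, and its 3 probe sets ran from -1.80 to -0.25. The other gene that fell was Spry2, by 0.23, with its other probe set at -0.06, while Spry4 rose by 0.26. Without wild-type replicate 1 the list had 5 higher and 1 lower genes. The lower count was also 1 without wild-type replicate 3, knockout replicate 1 or knockout replicate 2. With median centring, all probe sets averaged or a block on the replicate number it was 1 too. It was 3 with quantile normalisation repeated or the dimmest genes left out, and 4 with the intensity trend.

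Of chromatin proteins that work with Oct4 and Nanog, 26 of 27 listed were matched, all above the median level of genes. In limma 9 fell (34.6%), 4 rose (15.4%) and 13 did not pass, with a median of -0.11, beside 26.5% lower and 21.5% higher over all genes above that level. Ogt, which attaches N-acetylglucosamine to proteins, fell by 0.56, the histone demethylase Kdm1a by 0.44 and the remodeller subunit Arid1a by 0.41. Another Ogt probe set gave a log2 change of -0.02 and the other Arid1a probe set -0.04. Gatad2a, a subunit of the NuRD complex on chromosome 8, rose by 0.78, while its 5 probe sets ran from -0.20 to 0.80. The count of lower genes was 4 without wild-type replicate 1 and 5 without wild-type replicate 3, and that of higher genes was 2 without knockout replicate 2.

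Primed epiblast genes, which rise when naive cells move on, showed no common direction. Of 12 measured, 3 rose (25%), 4 fell (33.3%) and 5 did not pass, with a median of -0.02. Over all genes 12.5% rose and 17.5% fell. Of the 12, 8 lay above the median level of genes, where 21.5% rose and 26.5% fell. Fgf5 read 3.57 on average in wild type and 3.47 in knockout, and did not pass. Otx2 fell by 1.57 and Nodal by 0.73, while Zic5 rose by 1.11. Dnmt3a, which methylates DNA, rose by 0.79 on its brightest probe set, and another of its probe sets gave a log2 change of -0.02. Dnmt3b, which also methylates DNA, fell by 0.39, and its other probe set gave -0.35.

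Markers of other cell types were read as well, since a culture can hold differentiated or feeder cells. Of 14 primitive endoderm markers 9 fell and 0 rose in limma, also at an unadjusted p under 0.05, at a median of -1.02. The share that fell was 64.3%, beside 17.5% of all genes. Their summed linear signal was 2420 to 2517 in wild type and 1031 to 1105 in knockout. Most of it came from the basement membrane genes Lamb1, Col4a1 and Col4a2, the 3 markers above the median level of genes, which fell by 1.25, 1.29 and 1.52. The other 11 summed to 517 to 522 in wild type and 258 to 284 in knockout, and 6 of them fell. Cubn fell by 2.24, Dab2 by 1.80 and Pdgfra by 1.52. Other probe sets gave log2 changes of -0.22 for Dab2, 0.11 for Pdgfra and -0.18 for Lamb1. Of the defining endoderm factors, Gata6 read 6.31, 6.17 and 6.23 against 4.71, 4.85 and 5.14 on its brightest probe set, and another gave a log2 change of -0.04. Gata4, at 4.33 and 4.16 on average, did not pass. With only probe sets above the median level averaged, a setting added after the data were seen, 3 fell. The summed signal was thus lower in the same samples as Nanog, and its part in the core factors' change was not tested.

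Of the trophoblast markers 30.0% passed in either direction and of the fibroblast markers 27.3%, beside 30.0% of all genes. Of 10 trophoblast markers 2 rose (Krt18 by 0.60 and Krt8 by 0.40) and 1 fell (Krt7, by 0.89), and the defining factor Cdx2 read 4.05 and 4.11. Their summed signal was 1217 to 1266 in wild type and 1395 to 1442 in knockout. Within it, the keratin genes Krt8 and Krt18 read 8.42 and 8.05 on average in wild type, against 8.82 and 8.65 in knockout, and 7 markers did not pass. The 4 markers not above the median level of genes summed to 64.3 to 80.6 in wild type and 67.4 to 80.5 in knockout. Of 5 matched mesoderm markers 0 passed in limma (1 higher and 0 lower at an unadjusted p under 0.05), at summed signals of 88.8 to 104 and 87.6 to 96.5. Of 5 matched neural markers 2 rose and 1 fell, 60.0% called beside 30.0% of all genes. Tubb3, on chromosome 8 where 33.6% of genes rose, was higher by 0.76. Nes was higher by 0.43, with another probe set at 0.08, and Neurod1 was lower by 0.31. The defining neural factors Sox1 (0.06) and Pax6 (-0.04) did not pass. Other probe sets gave log2 changes of -0.44 for Sox1 and 1.51 for Pax6. The neural sums were 230.5 to 238 in wild type and 280 to 296 in knockout. Without wild-type replicate 1 only 1 neural marker rose. Of 11 fibroblast markers, which would report feeder cells, 2 fell (Thy1 by 1.07 and Pdgfrb by 0.50, with another probe set at -0.16) and 1 rose (Twist1, by 0.48), at sums of 393 to 438 and 320 to 354. Twist1 was no longer called without wild-type replicate 1 or 2, or without knockout replicate 2 or 3. The collagen genes Col1a1, Col1a2 and Col3a1 read 3.61, 3.34 and 2.59 on average in wild type, against 3.44, 3.04 and 2.74 in knockout. None of them passed. The 9 fibroblast markers not above the median level, Thy1 among them, summed to 171 to 174 in wild type and 123 to 144 in knockout. The part of these markers in the core factors' change was not tested.

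**Figure D4:**
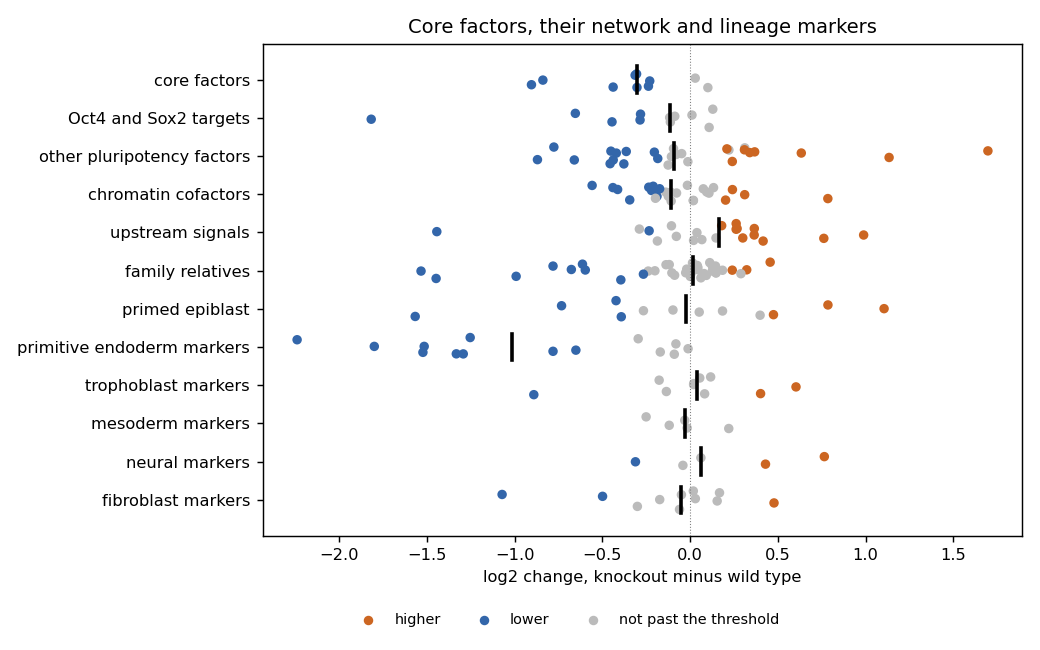
Log2 change (knockout minus wild type) of each measured gene on its brightest probe set, for the 10 core factors and 11 other lists. Orange points rose and blue points fell at an adjusted p under 0.05, grey points did not pass, and black bars are list medians. The core factors' median is -0.30, that of the primitive endoderm markers -1.02 and that of the upstream signals 0.16.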

How the data were processed

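Expression was measured in 3 wild-type and 3 knockout samples, 1 array each, grouped by genotype from the sample titles. The authors deposited log2 levels. The submitters' processing notes name Partek 6.5 and RMA, a method that subtracts background, gives all arrays 1 distribution and pools the probes of each set; the sources used here do not state its settings. The log2 scale was read from the values' range, and no further scaling was applied.

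Of 45101 probe sets, 64 controls were left out, and 34945 carried 1 gene symbol, 932 several and 9160 none. Only those with 1 symbol were named, which gave 18193 genes. By Entrez identifier 18031 genes had a chromosome in RefSeq's table for GRCm38.p6. The genotypes were compared by limma 3.58.1 under R 4.3.3 (lmFit, eBayes, two-sided, Benjamini-Hochberg adjustment over all genes at 0.05), and probe sets likewise over 45037. The procedure was checked on simulated data. Linear sums add the antilog of the log2 levels. Promoters came from RefSeq's 250 bases upstream.

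The members, lists and motifs were chosen with earlier results of these data known. Named were Sirt1, all members, up to 4 genes with the largest change past the threshold per list, the 5 genes nearest to Nanog, the defining cell type markers and 5 relatives of members (Yy1, Esrra, Sall1, Prdm15 and Tbx2). Klf4, Lin28a, Etv5, Spry2, Spry4, Dnmt3b, Fgf5, Grhl3, Tfcp2, Ubp1, Prdm1, Prdm4, Prdm9 and Prdm10 were added after their values were seen. The settings tried were repeated quantile normalisation, median centring, removal of the dimmest 40% of genes, means over probe sets, an intensity trend with robust variance, a block on the replicate number, leaving out each array, an adjusted p under 0.01 and a fit over all probe sets. A mean over probe sets above the median level was added after the data were seen.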

Additional observations from a re-analysis of the deposited data

How the results depend on the processing

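The 8 lower genes kept their direction and call in every setting run, with 1 exception: with all probe sets of a gene averaged, Tfcp2l1 (-0.043) and Tbx3 (-0.095) no longer passed, and Esrrb rose by 0.26, so that 6 fell and 1 rose. With only probe sets above the median level averaged, a setting added later, 8 fell and 2 rose, Pou5f1 by 0.10 (limma, Benjamini-Hochberg adjusted p = 0.0414) and Esrrb by 0.26. That fit held 9096 genes. At an adjusted p under 0.01 the same 8 fell, among 3356 genes in all against 5462 at 0.05. With an intensity trend and robust variance, 8 fell and 1 rose, Pou5f1 by 0.10. The difference of Esrrb from Pou5f1 turned to 0.16 under both averages. Under the average of all probe sets the difference from Pou5f1 was -0.14 for Tfcp2l1, -0.20 for Tbx3 and -0.38 for Sall4, and -0.38 for Sall4 under the other average too. Leaving out 1 array changed no member's call; the change of Nanog ranged from -0.94 to -0.88 and the list median from -0.32 to -0.29. Across genes, the deviations of wild-type and knockout arrays with the same number correlated at 0.0515, -0.0865 and 0.198, and knockout replicate 1 correlated best with wild-type replicate 2 (0.229), so the numbers were not taken to pair the samples. With the replicate block, the same 8 members fell, and 4700 of all genes passed against 5462 without it; of the chromatin proteins 5 fell and 2 rose, and 11 and 7 with probe sets above the median level averaged. Neither scaling alternative moved the median of all genes by more than 0.0188. Probe sets near the lower quartile of an array carry little signal over background. This limits what the dim probe sets of Tfcp2l1 and the dimmest of Tbx3, at a mean of 2.92, can show. The Tbx3 probe sets at means of 5.48 and 4.62 lay above that quartile, and the bright one at 9.64 did not pass either.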

Other observations

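Relatives of the core factors by family passed about as often as all genes. Of 39 matched relatives of 41 listed, 9 fell, 3 rose and 27 did not pass in limma, 30.8% called beside 30.0% of all genes, with a median of 0.01 and a mean of -0.14; 1 rose without wild-type replicate 1 or without knockout replicate 3. Among the relatives of Tfcp2l1, the closest, Tfcp2 (0.08) and Ubp1 (0.00), did not pass, while the more distant grainyhead genes did. Grhl1, a grainyhead factor of epithelia, read 7.66, 7.82 and 7.81 on the wild-type arrays, against 5.99, 6.32 and 6.39 on the knockout arrays, a log2 change of -1.53. Grhl2 read 7.87, 7.98 and 7.98 against 6.47, 6.55 and 6.47, a change of -1.45, although another of its probe sets gave 0.34, and Grhl3 rose by 0.32. Of the Sox genes, Sox15, which resembles Sox2 in its DNA binding, fell by 0.99 and the endoderm factor Sox17, which is also among the primitive endoderm markers, by 0.78.

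Relatives of Sall4, Zfp42, Esrrb, Prdm14 and Tbx3 were also read. Sall1 fell by 0.27 (limma, Benjamini-Hochberg adjusted p = 0.0201), and its other probe set gave a log2 change of -0.07. Yy1, the gene from which Zfp42 arose by retroposition, read 10.97 ± 0.02 and 11.08 ± 0.07 (SD, n = 3 each) on its brightest probe set and did not pass (limma, Benjamini-Hochberg adjusted p = 0.179). The log2 changes of its 4 probe sets ran from -0.68 to 0.11. Esrra (0.01), Prdm15 (0.14) and Tbx2 (-0.12) did not pass either, and Tbx2 was dimmer than the lower quartile of all 6 arrays. Of the other matched Prdm genes, Prdm1 fell by 0.68 and Prdm10 by 0.61, Prdm9 rose by 0.46 and Prdm4 (0.13) did not pass. Another Prdm10 probe set gave a log2 change of 1.24.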
